A study of Gallus gallus with 16 samples.

Results

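Unlabelled cells of the chick vagal region were compared between the earliest stage of the study and stage HH18 of the Hamburger-Hamilton series of chick development. The comparison rests on 4 of the 16 RNA-seq libraries, 2 from unlabelled cells at each of these stages, chosen by their labels and not by any measured value. All embryos were Wild-type chicken embryos that had been electroporated with the NC2:citrine and E2:citrine reporter constructs, and the unlabelled cells are the sorted NC2-, E2- fraction, called negative cells here. Embryos of the earliest stage were electroporated at HH4, whereas those collected at HH18 were electroporated at HH8 or HH9, so that stage and time of electroporation cannot be told apart. The sample records call the earliest stage HH10, while the series text and the table's column headings call it HH12. It is called HH10 here. The other libraries come from E2 cells (NC2-, E2+), double-positive or DP cells (NC2+, E2+) and negative cells at HH10, HH18 and HH25, with no DP group at HH10, and are used below to estimate the spread between libraries, to show where genes of the negative cells were also expressed, and to compare the stage change with that of E2 cells.

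As background, the vagal region is the level of the embryo next to the hindbrain and the first somites. Besides the neural crest that gives rise to most of the enteric nervous system, it holds neural tube, somites, pharyngeal and cardiac mesoderm, endoderm, surface ectoderm, vessels and blood. NC2 is known as an enhancer of FOXD3 and E2 as an enhancer of SOX10, both neural crest transcription factor genes. Negative cells are therefore a mixture of tissues. Since electroporation reaches only part of the cells, the negative gate can also hold crest cells without reporter. A level in such a mixture cannot tell more cells of a type from more RNA per cell. The label of the negative cells could not be checked against marker genes, because the table gives Ensembl identifiers without names and 0 of its 24881 identifiers matched the reference table of 25635 chicken genes. Genes are therefore described by position (galGal5 build), exon intervals and level, with no name or function.

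The HH10 negative libraries, numbered 1 and 3 in the table, held 22574825 and 39385794 counts, and the HH18 negative libraries held 7692817 and 4032540. Thinned to 4032540 counts each, they had counts in 13499 and 14097 genes at HH10 and in 13733 and 13760 genes at HH18. These pairs were close: the correlation across genes of log2 CPM (CPM is the count scaled to a common library size), which are not independent replicates, was 0.960 at HH10 and 0.946 at HH18, against 0.841 to 0.940 in the other 6 groups. The coefficient of variation between the libraries of a group, from its common dispersion, was 0.465 at HH10 and 0.303 at HH18, against 0.534 to 0.983 in the other groups. The HH10 pair still differed mostly in 1 direction. Of 9337 genes with at least 5 CPM at HH10, 15.6% were at least 2 times higher in library 3 than in library 1. Only 0.803% were at least 2 times lower. At HH18, 6.25% of 9433 such genes were at least 2 times higher in library 2 and 5.05% at least 2 times lower. Whether the 2 libraries of a group stem from separate embryos or pools is not stated, and a p-value here measures only how far libraries differ, which can be technical.

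In the edgeR fit of all 16 libraries, more genes were called higher than lower at HH18 in negative cells. Of 14676 genes tested, 358 were called, which is 2.44%: 288 were higher at HH18 (1.96%) and 70 were lower (0.477%) (edgeR quasi-likelihood test on all 16 libraries, Benjamini-Hochberg adjusted p below 0.05). The HH10 and HH18 libraries did not overlap for any of the 288 higher or 70 lower genes. The calls rest on these same libraries, which alone favours such separation, so it is no separate support for them. Over all genes tested the HH18 libraries lay wholly above HH10 for 27.5% and wholly below for 30.1%. The excess of higher genes depended on the fit: with only these 4 libraries 1955 genes were called, 1031 higher and 924 lower, and DESeq2 on all libraries called 1106, 767 higher and 339 lower. Besides a common dispersion of 0.138 in place of 0.440, the fit of 4 libraries had 12833 genes tested and 2 residual degrees of freedom, and which of these moved the count was not tested. Without HH10 library 1 or 3 the count was 138 or 121, without HH18 library 2 it was 159 (147 higher and 12 lower), and without HH18 library 1 it was 239.

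**Figure D1:**
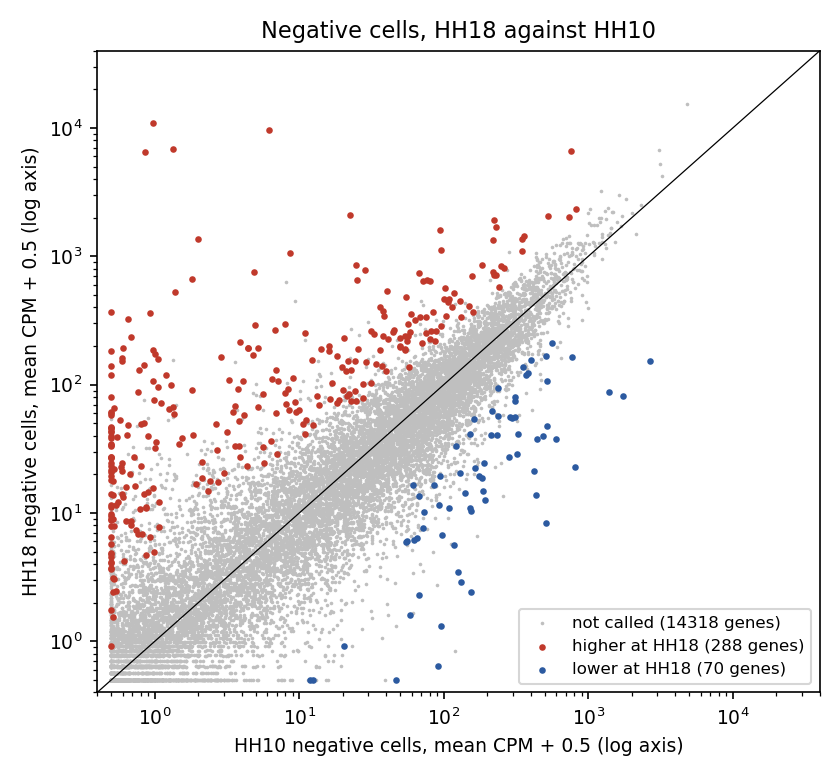
Mean level of each of 14676 tested genes in HH10 (horizontal axis) and HH18 (vertical axis) negative cells, in CPM with 0.5 added, on log axes; the line marks equal levels. The 288 genes higher at HH18 (red) include a column at the left edge with no count at HH10. The 70 lower genes (blue) start from higher levels, an order that choosing both sets on these libraries alone favours.

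The genes that rose came mostly from low levels at HH10. Since HH10 entered the calls, the choice alone favours low values there for these genes. Their median level was 3.24 and 3.31 CPM in the HH10 libraries and 78.9 and 87.2 CPM in the HH18 libraries. Together they took 1.23% and 1.07% of all counts at HH10, and 7.35% and 11.7% at HH18. Of the 288 genes, 46 had no count in either HH10 library, among 61960619 counts in all, and reached 0.414 to 370 CPM at HH18, with a median of 21.9 CPM. The lowest of them rests on few counts, since 3 counts over both HH18 libraries amount to 0.276 CPM. Against a floor of 3 counts over both HH10 libraries, these 46 genes were at least 8.89-fold to at least 7933-fold higher at HH18. Of the remaining 242 genes, 104 were at least 16 times higher in mean CPM, 97 were 4 to 16 times higher and 41 less than 4 times. At HH18, 19 of the 288 genes stood above 1000 CPM, 116 between 100 and 1000, 119 between 10 and 100 and 34 under 10 CPM.

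The gene with the highest fitted fold change was ENSGALG00000032717 on chromosome 19 (382462 to 383326, minus strand, 3 exon intervals, 385 exonic bases). It had no count in either HH10 negative library and 369 and 371 CPM in the HH18 negative libraries, at least 7933-fold higher (adjusted p = 2.25e-05, edgeR). Both HH18 libraries stood at nearly the same level. In the libraries outside the comparison it had 622 and 674 CPM in HH18 DP cells and 820 and 667 CPM in HH25 negative cells. It was at 17.5 and 7.18 CPM in HH18 E2 cells and had no count in HH10 E2 cells. At HH25 it stood at 7.43 and 1.42 CPM in E2 cells and at 33.7 and 20.5 CPM in DP cells, so that only HH18 DP and HH25 negative cells matched or exceeded the HH18 negative level.

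The largest gain in CPM was that of ENSGALG00000043234 on chromosome 14 (12163617 to 12164434, plus strand, 3 exon intervals, 566 exonic bases). It had 0.495 and 0.450 CPM at HH10, from 11 and 19 counts, and 6864 and 14916 CPM in HH18 libraries 1 and 2. The log2 fold change was 14.48 (SE 0.95, adjusted p = 1.84e-06, edgeR), and the ratio in pooled counts was 20413, with a 95% counting interval of 14298 to 30256. HH18 library 2 stood more than 2 times above library 1, a spread far smaller than the change. HH25 negative cells stayed at 5872 and 9528 CPM. In HH18 E2 cells the level was 151 and 270 CPM and in HH18 DP cells 84.5 and 181 CPM. The gene rose in E2 cells too, from 2.84 and 0.836 CPM at HH10, and stood at 722 and 1112 CPM at HH25. HH25 DP cells had 235 and 129 CPM.

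That gene was the last of 3 genes on 1 strand of chromosome 14, within 7530 bases (12156905 to 12164434), that were among the 4 genes with the largest gain. The 3 genes summed to 7.30 and 6.61 CPM at HH10 and to 16872 and 37858 CPM at HH18, a ratio of 3470 in pooled counts (3161 to 3819). If neighbours this close are copies of each other, reads can be assigned to the wrong one, and the sum is then the safer value. Another tested gene in that stretch, on the other strand, was at a mean of 0 CPM at HH10 and 0.910 CPM at HH18 and was not called. The other gene of the 4 lay on chromosome 1 (194562710 to 194576539, plus strand, 6 exon intervals), chosen after its values were seen. It went from 0.360 and 0.355 CPM to 3764 and 9135 CPM (adjusted p = 1.84e-06, edgeR), and it overlaps a second gene on the same strand that also rose. These 4 genes together had 20636 CPM in HH18 library 1 and 46993 CPM in library 2. Without them the other 284 genes still summed to 56725 and 85070 CPM at HH18, against 12449 and 9971 CPM at HH10.

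**Figure D2:**
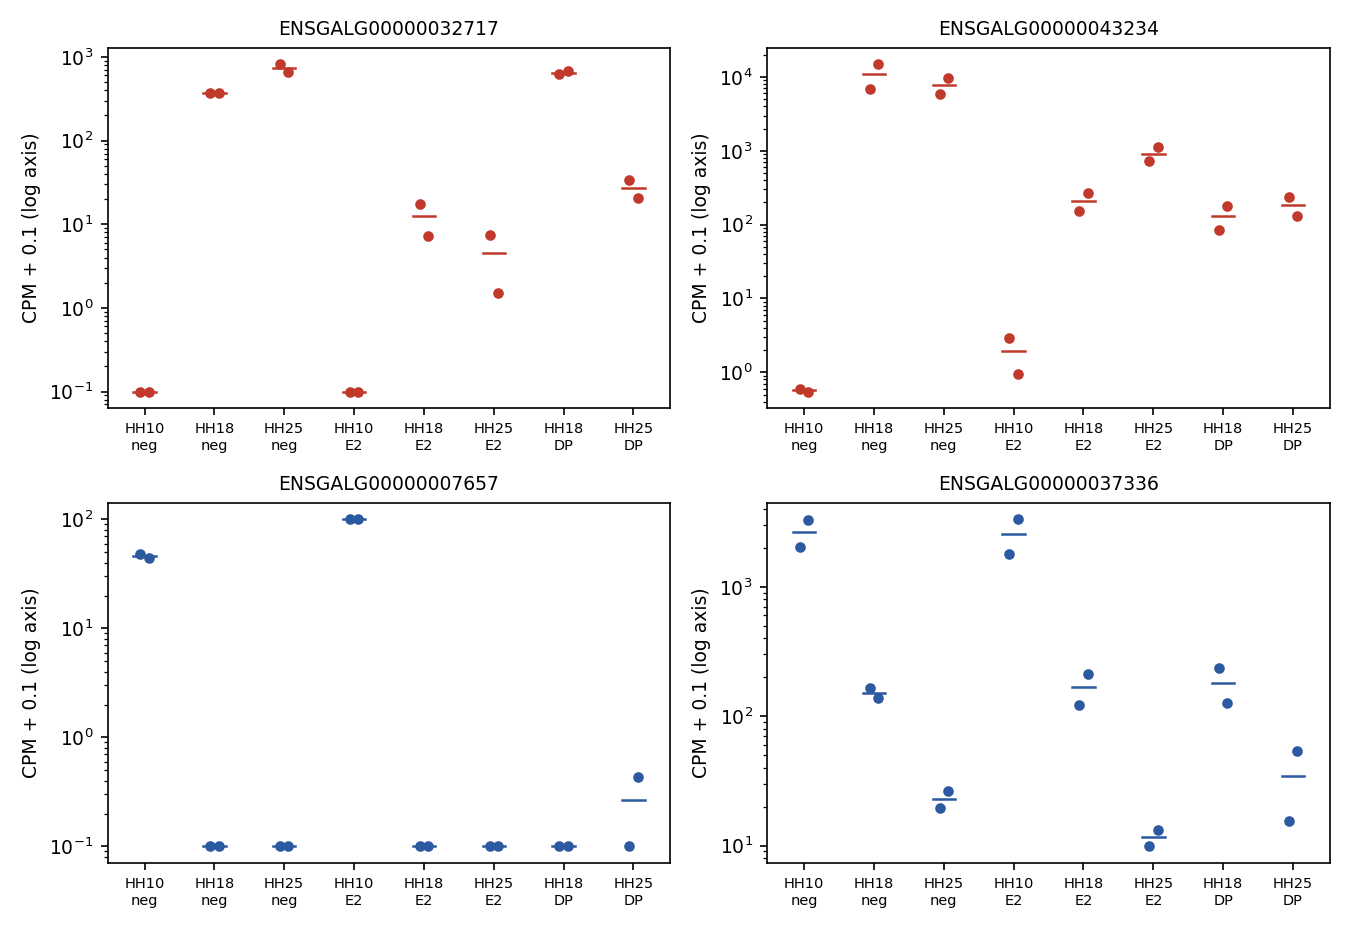
Level in CPM, with 0.1 added and on log axes, of the 4 genes named for negative cells in every library; each point is a library, each bar the mean of the 2 libraries of a group, and 0.1 marks no count. The upper genes rose between HH10 and HH18 negative cells and the lower genes fell; ENSGALG00000032717 was as high in HH18 DP cells (622 and 674 CPM) as in negative cells, and ENSGALG00000043234 was not (84.5 and 181 CPM).

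Several of the genes that rose were neighbours. There were 4 runs of 3 neighbouring tested genes that all rose, 16 such pairs, 2 pairs that fell and no longer run. In some pairs the genes overlap, as on chromosome 1 (194562710 to 194576539), so reads can be shared. How many runs and pairs would arise without regard to position was not tested. The run with the highest level lay on the minus strand of chromosome 21 (6083120 to 6090874). It had no count at HH10 and a summed 471 and 406 CPM at HH18, at least 9424-fold higher in all, with an adjusted p of at most 3.77e-04 for each gene (edgeR). In HH18 DP cells the run stood at 767 and 779 CPM and in HH18 E2 cells at 27.9 and 15.0 CPM. A run on the minus strand of chromosome 25 (1264089 to 1284656) went from 0.180 and 0.189 CPM to 79.1 and 74.0 CPM, with 44.8 and 105 CPM in HH18 DP and 1.98 and 3.34 CPM in HH18 E2 cells. In both runs the HH18 negative libraries stood close together and DP cells, not E2 cells, came near or above them.

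The other runs differed between the HH18 libraries and were much higher at HH25. On chromosome 3 (107900662 to 107917298) the genes had no count at HH10, a summed 29.7 and 229 CPM in HH18 libraries 1 and 2, and 3469 and 3308 CPM in HH25 negative cells. On chromosome 2 (4018778 to 4026402), a run named after its values were seen, the sum was 0.450 and 1.04 CPM at HH10, 15.2 and 60.6 CPM at HH18 and 1637 and 1438 CPM in HH25 negative cells. Summed levels of either run in E2 and DP cells of all stages were at most 3.22 CPM. The number of runs was 1 without either HH10 library, 3 without HH18 library 1 and 2 without HH18 library 2.

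Some of the genes that rose were also expressed in HH18 crest cells, though a smaller share than among all expressed genes. The 288 genes that rose were sorted by their mean level in HH18 crest cells relative to HH18 negative cells, with limits set after the values were seen, at 50% and 10%. The genes had been chosen for a high level in HH18 negative cells, which alone favours lower levels elsewhere, so these counts are a description. In 94 genes both E2 and DP cells reached at least 50% of the negative level (32.6%, against 79.3% of the 9433 tested genes with at least 5 CPM in HH18 negative cells). In 55 genes DP cells reached 50% and E2 cells stayed under 10% (19.1% against 1.63%), and in 41 genes both stayed under 10% (14.2% against 1.23%). The remaining 98 genes lay between these limits. Near the limits, from 80% to 125% of each, there were 10 to 34 genes.

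The 94 genes shared with both crest populations had a median of 6.13 and 5.82 CPM in HH10 negative and 8.47 and 6.24 CPM in HH10 E2 cells. At HH18 they stood at 60.7 and 46.1 CPM in negative, 86.4 and 68.9 CPM in E2 and 78.0 and 79.9 CPM in DP cells. Their medians at HH25 ranged from 67.0 to 117 CPM over the 6 libraries. The higher levels at HH18 than in HH10 negative cells follow from how the set was chosen. HH25 libraries were not compared in that choice. They did enter the filter and the estimate of each gene's spread between libraries.

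The 55 genes of HH18 negative and DP cells had low levels at HH10, with a median of 0 and 0.0474 CPM in negative and of 0 CPM in both E2 libraries. Their summed level at HH10 was 166 and 137 CPM in negative and 219 and 126 CPM in E2 cells, and 25 of them had no count in HH10 negative cells. Their HH18 medians were 53.4 and 48.8 CPM in negative, 65.0 and 57.8 CPM in DP and 1.12 and 0.910 CPM in E2 cells. At HH25 negative cells remained at 56.7 and 49.7 CPM, whereas DP cells were at 1.96 and 1.76 CPM and E2 cells at 1.45 and 0.284 CPM. The HH18 levels follow from how the set was chosen. HH25 libraries were not compared in that choice, but they entered the filter and the estimate of each gene's spread. ENSGALG00000032717 is a member of the set.

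The 41 genes low in both crest populations had a median of 0.901 and 1.09 CPM at HH10 and of 104 and 288 CPM in HH18 negative libraries 1 and 2. They summed to 446 and 405 CPM at HH10 and to 28032 and 66196 CPM at HH18, out of 77360 and 132062 CPM for all 288 genes. The 4 genes with the largest gain belong to this set and hold 20636 and 46993 CPM of its HH18 sums. In HH18 E2 and DP cells their medians were 3.61 to 4.72 CPM. In HH25 negative cells their medians were 140 and 120 CPM. There 21 of the 41 genes were at 50% or more of their HH18 negative mean, against 69.2% of the 9433 tested genes with at least 5 CPM in HH18 negative cells. Of these 41 genes, 40 were at least 2 times higher in HH18 library 2 than in library 1, as were 0 of the 55 genes shared with DP cells and 2 of the 94 shared with both crest populations. Over the 9433 genes with at least 5 CPM, 6.25% had such a ratio, and of all 288 genes that rose, 70 did. Whether the negative libraries of HH18 held different shares of a cell type was not tested, since no marker could be looked up. Without HH18 library 2 the set held 18 genes and without library 1 it held 45. It held 21 genes without either HH10 library. The sets of 94 and 55 genes fell to 29 to 49 and to 24 to 38 with 1 of the 4 libraries left out.

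**Figure D3:**
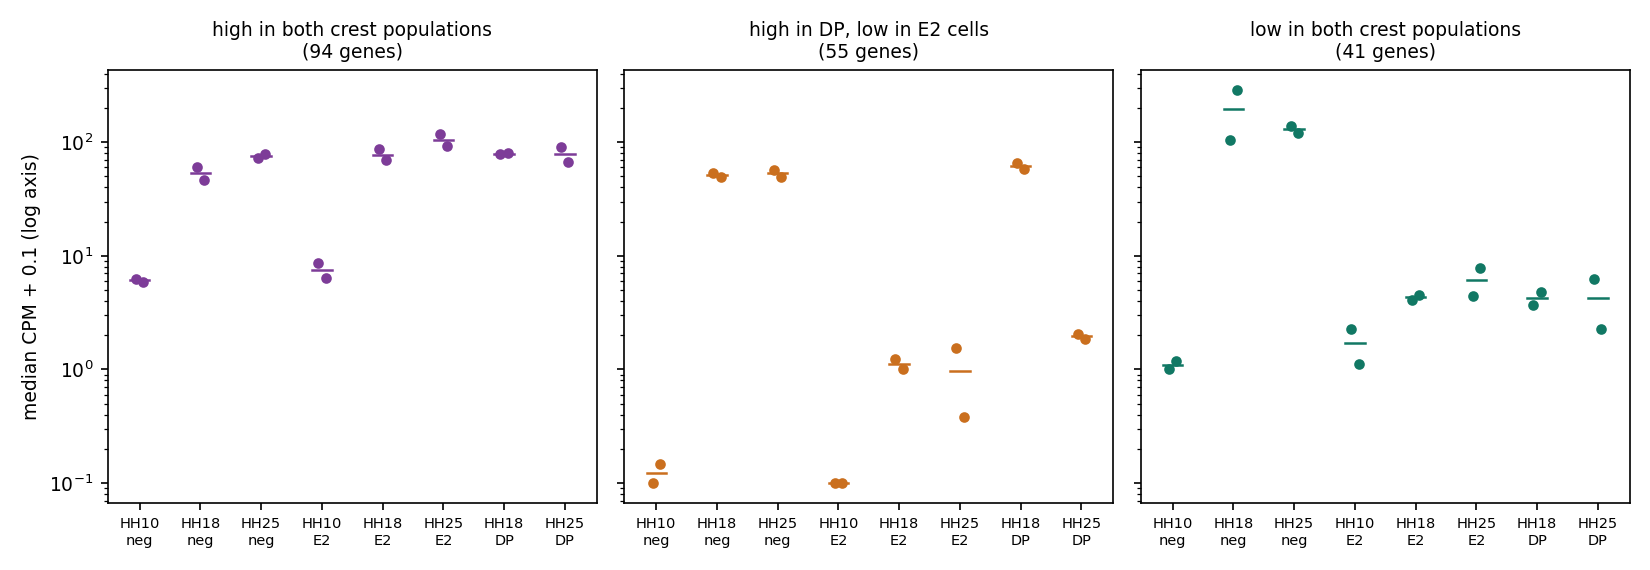
Median level over the genes of each set, in CPM with 0.1 added on a log axis, in every library; points are libraries, bars the mean of the 2 libraries of a group. The 94 genes of the left panel were high in all HH18 populations, the 55 of the middle panel in HH18 negative and DP cells (48.8 to 65.0 CPM), and the 41 of the right panel in negative cells only of the 3 HH18 populations.

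The 70 genes that fell started from higher levels than those that rose. HH10 levels entered the calls, which alone favours this order. The floor of 3 counts was 0.0466 CPM at HH10 and 0.276 CPM at HH18, and its part in the order was not tested. The values of the 70 genes are given as a description. Their median was 162 and 212 CPM in the HH10 libraries and 22.2 and 19.1 CPM in the HH18 libraries. All 70 were above 10 CPM at HH10, and 3 of them were above 1000 CPM. Only 3 had no count in either HH18 library, where the pooled depth was 11725357 counts. Of the other 67, 15 were at least 16 times lower in mean CPM, 39 were 4 to 16 times lower and 13 less than 4 times. Together the 70 genes took 1.97% and 2.46% of all counts at HH10, and 0.318% and 0.212% at HH18.

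ENSGALG00000037336 on chromosome 10 (7815470 to 7903310, plus strand, 22 exon intervals, 9586 exonic bases) lost the most CPM. It had 2047 and 3297 CPM in the HH10 and 164 and 138 CPM in the HH18 negative libraries, a log2 fold change of -4.14 (SE 0.59, adjusted p = 0.00129, edgeR). E2 cells stood at like levels, with 1805 and 3343 CPM at HH10 and 123 and 213 CPM at HH18. HH18 DP cells had 236 and 125 CPM. By HH25 all libraries of the 3 populations lay between 9.74 and 53.8 CPM, below every HH18 library.

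ENSGALG00000007657 on chromosome 4 (12159094 to 12167695, plus strand, 3 exon intervals, 1443 exonic bases) had the lowest fitted fold change. It had 48.3 and 43.8 CPM in the HH10 negative libraries and no count at HH18, at least 164-fold lower (adjusted p = 0.00826, edgeR). Its adjusted p was 0.063 without HH18 library 1, 0.054 without HH18 library 2 and 0.34 with DESeq2, within a range of 4.15e-05 to 0.34 over 12 alternatives. The gene had 100 and 101 CPM in the HH10 E2 libraries and no count in HH18 or HH25 cells except for 14 counts in 1 HH25 DP library. With its neighbour on the same strand it formed 1 of the 2 falling pairs (12138454 to 12167695). The pair summed to 62.6 and 53.4 CPM in HH10 negative and 171 and 144 CPM in HH10 E2 cells, and had no count in any HH18 library. The other falling pair, on chromosome 12 (5812606 to 5882308), went from 533 and 663 CPM to 169 and 102 CPM in negative cells, and had 64.0 and 59.8 CPM in HH10 E2 cells.

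As a set, the genes that fell had a median of 83.9 and 101 CPM in HH10 E2 cells. This was below their median of 162 and 212 CPM in HH10 negative cells. They had been chosen for a high level in HH10 negative cells, which alone favours lower levels elsewhere, so the counts here are a description. In 36 of the 70 genes HH10 E2 cells reached at least 50% of the HH10 negative level and in 5 they stayed under 10%. Among 9337 tested genes with at least 5 CPM in HH10 negative cells these shares were 88% and 2.58%. At HH18 the medians were 22.6 and 24.1 CPM in E2 and 22.3 and 17.5 CPM in DP cells, close to HH18 negative cells. In HH25 negative cells 29 of the 70 genes stayed under 10% of the HH10 level, while 11 were at 50% or more, against 7.13% and 61.5% of the 9337 genes. These 11 genes had medians of 127 and 131 CPM at HH10, 18.9 and 11.5 CPM at HH18 and 78.7 and 95.7 CPM at HH25. The order of these medians follows from how the 11 genes were chosen, on these same libraries. Of the 288 genes that rose, 209 were at 50% or more of the HH18 level in HH25 negative cells and 10 under 10%, shares near those of all tested genes with at least 5 CPM in HH18 negative cells (69.2% and 3.91%).

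**Figure D4:**
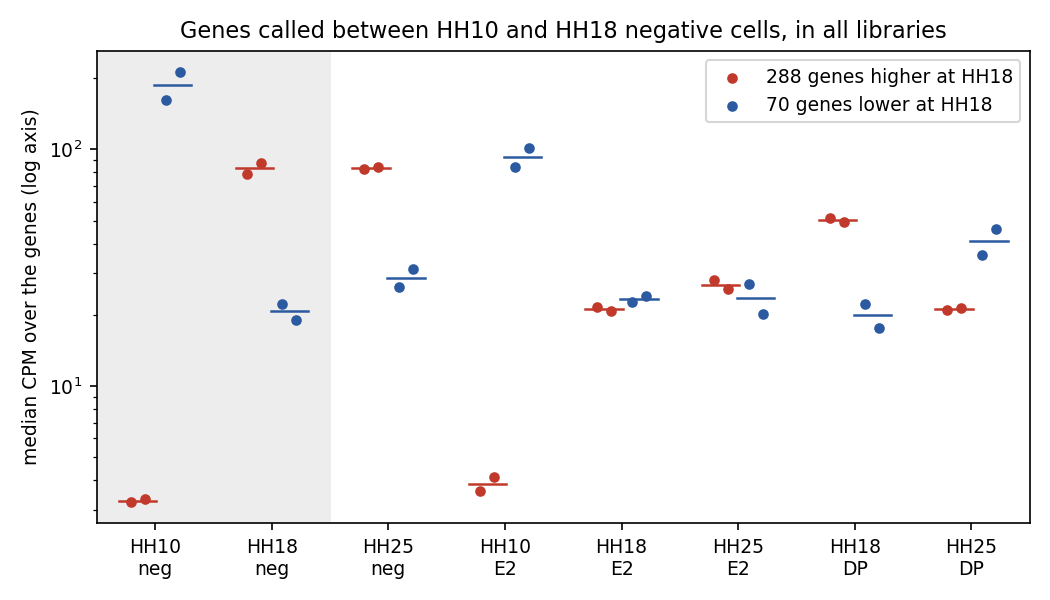
Median level in CPM, on a log axis, of the 288 genes higher (red) and 70 genes lower (blue) at HH18 in every library; points are libraries, bars the mean of the 2 libraries of a group, and grey marks the groups compared. Genes that rose stayed at 82.6 and 84.2 CPM in HH25 negative cells. Genes that fell stood at 83.9 and 101 CPM in HH10 E2 cells, below HH10 negative cells (162 and 212 CPM).

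The same stages were compared in E2 cells, which share no library with the negative cells. Both comparisons came from a single fit, with the same filter and the same estimate of each gene's spread between libraries. Their calls are therefore not independent. There 711 genes were called (4.84% of those tested), 558 higher (3.8%) and 153 lower (1.04%) at HH18. Of the 288 genes that rose in negative cells, 122 rose in E2 cells, 42.4% of the negative list and 21.9% of the E2 list, 3 fell and 163 were not called. Of the 70 genes that fell, 36 fell in E2 cells, 51.4% of the negative list and 23.5% of the E2 list, and 1 rose. In mean CPM 242 of the 288 genes were higher at HH18 in E2 cells too, against 52.1% of all genes tested, and 64 of the 70 were lower, against 45.7%. Of the 94 genes shared with both crest populations, 67 rose in E2 cells, as did 15 of the 55 and 8 of the 41 genes of the other sets. The sets were formed with HH18 E2 levels, so the order of these 3 counts is fixed in part by that choice. Stage and electroporation time differed in E2 cells as they did in negative cells. The number called in 1 direction in both populations was 158. With only the groups compared in each fit it was 25, with 28 calls in all in E2 cells and 1955 in negative cells. The order of these totals, 711 in E2 against 358 in negative cells in the fit of all libraries, thus depended on the fit. With 1 library left out, E2 cells gave 315 to 620 calls and 73 to 139 genes were shared.

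A test of the difference between these stage changes called 118 genes, 0.804% of those tested. Where a gene has no count in HH10 cells of both populations, neither change has an upper bound, so this test can miss a difference. ENSGALG00000032717 is such a gene and was not called. In 44 (0.3%) the change of negative cells was above that of E2 cells and in 74 (0.504%) it was below. Of the 44 genes, 1 had no count in HH10 negative cells. ENSGALG00000043234 was among the 44, with a difference of 7.51 on the log2 scale (SE 0.94, adjusted p = 0.00136, edgeR). The medians of the 44 genes were 6.73 and 7.08 CPM in HH10 and 188 and 388 CPM in HH18 negative cells, against 15.2 and 14.0 CPM in HH10 and 8.59 and 9.86 CPM in HH18 E2 cells. HH18 negative library 2 stood again above library 1. The medians of the 74 genes were 5.83 and 6.76 CPM in HH10 and 14.8 and 11.1 CPM in HH18 negative cells. In E2 cells they were 0 CPM in both HH10 libraries and 13.1 and 11.5 CPM at HH18. Both sets were chosen on these same libraries, so the contrast between negative and E2 cells follows from that choice. Of the 74 genes, 45 had no count in HH10 E2 cells, whose libraries held 11299 and 12184 genes at equal depth, against 12177 to 14097 in the other libraries. The count was 38 without HH18 negative library 2 (19 above and 19 below), 49 with only these 4 groups, 204 and 207 without HH10 E2 library 1 or 3, and 66 to 73 without any other library of the 4 groups.

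**Figure D5:**
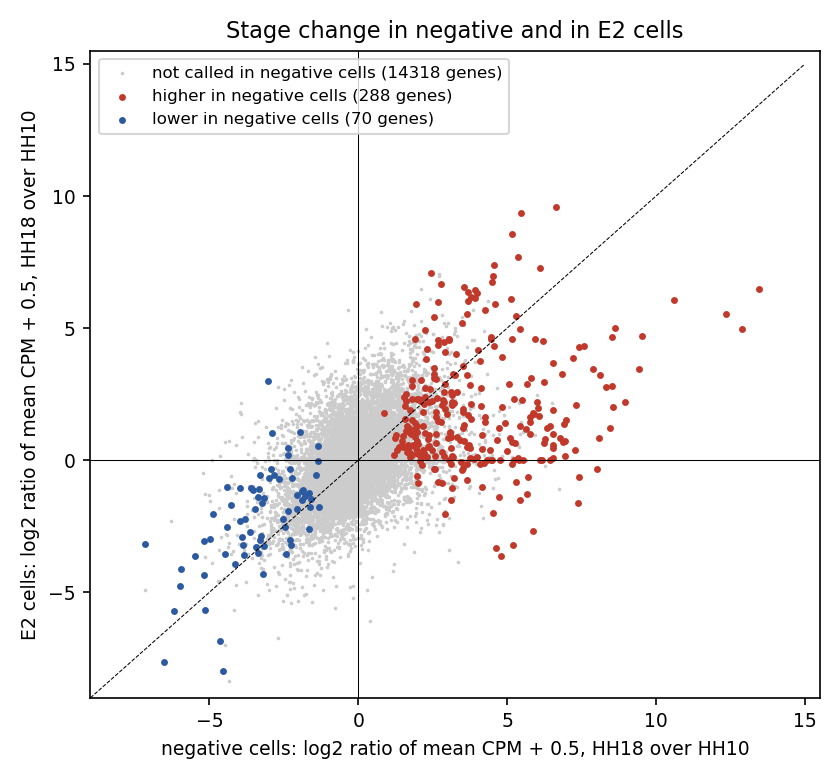
Stage change from HH10 to HH18 in negative (horizontal) and E2 cells (vertical), as the log2 ratio of group mean CPM with 0.5 added, for 14676 genes; the dashed line marks equal change. Most of the 288 genes higher in negative cells (red) lie above 0 in E2 cells too, and those farthest to the right lie under the dashed line.

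The genes that rose had a lower median length than those that fell. The median exonic length was 1609 bases for the 288 genes, 2568 bases for the 70 genes and 1872 bases for all genes tested, and the median genomic span was 8107, 15326 and 11778 bases. In the fifth of tested genes with the longest exonic sequence (3278 to 26070 bases), 28 rose and 29 fell among 2934 genes. Among the 2936 tested genes with the shortest (62 to 1055 bases), 59 rose (2.01%) and 9 fell (0.307%) in negative cells. The shares over all genes tested were 1.96% and 0.477%, and among the 2934 longest genes 0.954% and 0.988%. The shortest genes thus rose at close to the share over all genes. Of the 5 classes of exonic length, that of 1056 to 1589 bases had the highest share that rose, 2.76%. E2 cells gave medians of 1705 bases for their 558 higher and 3164 bases for their 153 lower genes, the order seen in negative cells. For genomic span, which was not tested between populations, the median was 12143 bases for the higher and 18460 bases for the lower genes of E2 cells. In the fifth of tested genes with the longest span 149 rose in E2 cells (5.08%) and 38 in negative cells (1.3%). The shares of all genes tested that rose were 3.8% in E2 and 1.96% in negative cells. RNA integrity of single libraries is not given in the sources used here beyond a RIN above 6 for all. Its part in the order of median lengths was not tested.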

How the data were processed

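RNA was measured in 16 libraries of sorted chick cells, 2 for each of 8 groups. Per the labels' protocols, low-input full-length cDNA was made from total RNA and sequenced as 40 bp read pairs. Per the submitters' processing notes, tools included STAR 2.4.2a, Subread 1.4.5, featureCounts and DESeq2, on galGal5; settings for strand and multiple matches were not given in the sources used here, so overlapping, antisense or near-identical genes may share reads. The deposited values are raw counts per gene, with no normalization by the authors. Total counts ran from 4032540 to 45313160 per library. Of 24881 genes 7511 had no count.

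Counts were tested with edgeR 4.0.16 (R 4.3.3, quasi-likelihood F test, TMM, filterByExpr, 14676 genes, 8 group means, 8 residual degrees of freedom). DESeq2 1.42.0 was an alternative. SE stands for the absolute log2 fold change, or difference, divided by the square root of the F statistic, since the test itself gives no standard error. The fit was checked on simulated counts with a single dispersion for all genes and groups. Dispersions of the groups here ran from 0.0917 to 0.966, so the check does not cover unequal spread between groups. CPM are TMM-scaled, whereas shares of counts are not. A fold against 0 counts is a lower bound from a floor of 3 counts over the group; intervals and floors cover counting error only, as reads carry no molecular identifiers. The table's columns carry replicate numbers 1 and 3 at HH10 and 1 and 2 at HH18, against 1 and 2 in the sample records, so HH10 columns were assigned by group. Genes to name were chosen by rule: in each direction the called gene with the most extreme fold change and the one with the largest change in CPM, with at least 5 CPM and no overlap, the genes with the highest and lowest difference between stage changes, and the 3 longest runs of neighbours. The 28 gene lists and marker sets could not be looked up. Members, lists and rules were chosen with earlier results of these data known. Sorting the genes that rose by their crest level, and repeating that sort under each alternative, was chosen after seeing the data.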

Additional observations from a re-analysis of the deposited data

Results flagged for a closer look

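The stage change differed between negative and E2 cells for 118 genes in a test of the difference itself (edgeR quasi-likelihood test, Benjamini-Hochberg adjusted p below 0.05). ENSGALG00000043234 was flagged because it rose by 14.48 on the log2 scale in negative and 6.98 in E2 cells (adjusted p of the difference = 0.00136, edgeR). ENSGALG00000005257 on chromosome 8 (11858182 to 11864932) had the highest difference (adjusted p = 0.0366, edgeR). It had no count in HH10 and 12.9 and 3.93 CPM in HH18 negative cells, against 0 and 1.02 CPM in HH10 E2 and no count in HH18 E2 cells, and it missed the threshold with any 1 of these 8 libraries left out except HH10 E2 library 1. It passed in 5 of 16 alternatives. ENSGALG00000011200 on chromosome 3 (41483185 to 41514674) had the lowest difference (adjusted p = 0.0308, edgeR). It had 8.42 and 16.7 CPM in HH10 and 2.87 and 4.21 CPM in HH18 negative cells, against no count in HH10 E2 and 1.84 and 7.59 CPM in HH18 E2 cells, and it passed in 8 of 16 alternatives. Groups of 2 libraries are too small to test for outlying samples.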

How the results depend on the processing

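Both rising genes named for negative cells and ENSGALG00000037336 passed in all 12 alternatives, and no named gene changed sign in any alternative. The number of genes called in negative cells was 370 with DESeq2 size factors, 473 without a filter, 414 with a stricter filter and 434 at equal depth. With DESeq2 it was 1106, with only the groups compared 1955, and at an adjusted p below 0.01 it was 172. Of the 288 higher and 70 lower genes, 284 and 70 were called again with only the groups compared, where 4 were not tested. In the same order (DESeq2, only the groups compared, adjusted p below 0.01), the difference between negative and E2 cells gave 433, 49 and 48 genes and E2 cells 2181, 28 and 269. Called genes with no count in a group numbered 89, 170 and 22 against 49, runs of neighbours 12, 51 and 1 against 4, and genes shared with E2 cells 552, 25 and 73 against 158. With 1 library left out, these counts ran from 121 to 239 in negative cells, 38 to 207 for the difference, 315 to 620 in E2 cells, 21 to 36 for genes with no count, 1 to 3 for runs and 73 to 139 for shared genes. Where fewer libraries or a lower threshold lowered a count, fewer samples or the threshold itself enter; for the other changes the cause was not tested. Genes with no count were not counted at equal depth.

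Replicate numbers pair only libraries numbered 1 between HH10 and HH18 negative cells, and their deviations from the group means did not go together (r = 0.0081 across genes). With the replicate number as a block over all libraries 258 genes were called, 216 higher and 42 lower, with 193 and 41 of those called without the block, and called genes with no count in a group numbered 29. The lower depth at HH18 sets a floor of 0.276 CPM over both libraries, against 0.0466 CPM at HH10, so that absence at HH18 is less certain than at HH10.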

Other observations

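Called genes were spread over the genome. Over all genes tested, 1.96% rose and 0.477% fell in negative cells. Among the 28 chromosomes with at least 100 tested genes, between 0.535% (chromosome 15) and 4.85% (chromosome 25, 8 of 165 genes) rose. The 8 genes include the run of 3 described above. On 25 of the 28 chromosomes more genes rose than fell, as over all genes. Chromosomes 22 and 26 followed chromosome 25, with 3.94% and 2.94%. On chromosomes 11, 13, 14, 18, 19 and 22 no gene fell. These have 127 to 397 tested genes each, so at 0.477% over all genes few falling genes are expected on any of them. Chromosome W is found in female birds. Its 23 tested genes summed to 476 and 381 CPM at HH10 and to 310 and 240 CPM at HH18 in negative cells, and none of them was called between HH10 and HH18 by edgeR.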
